A study of Mus musculus with 6 samples.

Results

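Resident macrophages that carry Mrc1 and Folr2 were singled out in droplet single-cell RNA libraries of mouse aorta, which count captured transcripts by their unique molecular identifiers (UMIs). Macrophages of the artery wall are phagocytes. Some settle in the wall around birth and renew there by division, and others come from circulating monocytes that enter through the receptor Ccr2. The settled cells of the outer wall are known for the mannose receptor Mrc1, the folate receptor Folr2, the transglutaminase F13a1 and the haemoglobin scavenger receptor Cd163, and for clearing dead cells, haem and matrix fragments. All samples came from C57B/6J mice of 18 weeks. In 3 samples the mice were on a high-fat diet and in 3 on a normal diet (control), and how long the diets lasted is not given in the sources used here.

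A cell was kept with at least 300 genes, under 20% mitochondrial UMIs, at least 3 UMIs over the macrophage genes Csf1r, Cd68, Adgre1 and Fcgr1, and no UMI of the T cell gene Cd3e or the B cell gene Cd79a. Its sum over Mrc1, Folr2, F13a1 and Cd163 (R) had to reach 3 and to exceed its sum over the monocyte genes Ccr2, Ly6c2, Plac8 and Chil3 (M). This found 4890 resident macrophages among 62838 cells in the files, of which 59413 passed the filter and 5980 passed the macrophage gate. The high-fat diet samples 1, 2 and 3 held 694, 369 and 1051 of them, and the control samples 1, 2 and 3 held 603, 1739 and 434. A further 604 gated cells had M above R, here called M-above-R cells, and 486 met neither condition. The members were chosen by their measured UMIs of these genes, so the levels of the rule's genes and every comparison of the resident with the M-above-R cells are given as a description with no test. Differences between diets, and between resident cells with and without Lyve1, were not part of the rule and were tested.

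Cells just inside and just outside the limits were compared by C1qa, a complement gene that the rule does not use. Its level is given in CPM, the UMIs of a gene scaled to a common total of all UMIs in the summed cells. The 133 cells with an R of 3 held 2426 CPM of C1qa, and the 136 cells with an R of 2 that were not kept held 2015 CPM. The 704 cells with 3 gate UMIs held 2872 CPM and the 771 otherwise fitting cells with 2 held 1638 CPM. Most members lay well inside: 3737 cells (76.4%) had an R of at least 10, with 5698 CPM of C1qa, and 3596 (73.5%) had no UMI of the monocyte genes. The condition on lymphocyte genes bore unevenly on the samples. It left out 31, 23 and 26 otherwise fitting cells in the high-fat diet samples and 36, 212 and 315 in the controls, so control 3 lost 315 cells beside the 434 it kept.

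Resident macrophages had a median of 3662.5 UMIs per cell, against 7299.5 in M-above-R cells and 2774.5 in 6288 T and B cells (at least 2 UMIs of Cd3e and Cd79a and none of the gate genes), which served as the background for free RNA. Sums over the resident cells held 2028473 to 4001672 UMIs in the high-fat diet samples and 1799741 to 7181393 UMIs in the controls. A doublet score above 0.25 was found for 199 resident cells (4.07%). Between 61 and 260 cell barcodes were shared by any pair of samples, and 18 barcodes of resident cells recurred among the resident cells of another sample. Control 1 stood apart. Its resident sum held 16141 CPM over 10 skeletal muscle genes, against 38.9 to 854 CPM in the other samples. Cells were assigned to well 1 or 2 by the number that ends their barcode, taken here to mark the well. The wells held unlike mixes of cells, so they are not read as repeats of each other. In control 2, T and B cells were 2565 of 9640 filtered cells in well 1 and 393 of 6928 in well 2. The wells of a sample gave unequal numbers of resident cells too. The first of the pair gave 199, 226 and 640 of them in the high-fat diet samples and 455, 480 and 44 in the controls, and the second 495, 143 and 411 in the high-fat diet samples and 148, 1259 and 390 in the controls. Whether the samples are separate animals is not stated in the labels, and the p-values below therefore cover only how these 6 samples vary.

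The marker levels are given first for the genes that chose the cells, where the rule itself fixes the gaps, and for C1qa, which the rule does not use. After thinning every cell to 1000 UMIs, Mrc1 was found in 49.3% to 67.7% of the resident cells of a sample (median 59.0%), against 5.97% to 15.4% of M-above-R cells and 0% to 3.77% of T and B cells. Without thinning the medians were 91.9%, 36.9% and 7.81%. The complement gene C1qa was found in 89.1% to 97.2% of resident cells, 25.4% to 44.9% of M-above-R cells and 6.56% to 41.5% of T and B cells, and its medians without thinning were 99.4%, 81.2% and 53.8%. The T and B cell shares are given as a background for free RNA, whose level in the macrophages was not measured. Those cells were chosen to have no UMI of the gate genes, and 233 of them had a doublet score above 0.25. In control 1, which gave the 41.5% for C1qa, they were 53 cells. Thinning left out 1 cell, among the T and B cells. Mrc1 averaged 869 ± 168 CPM in resident cells and 84.3 ± 17.1 CPM in M-above-R cells (SD, n = 6 samples), Folr2 1148 ± 298 and 40.6 ± 14.9 CPM, F13a1 1389 ± 269 and 108 ± 30.9 CPM, and Cd163 587 ± 161 and 28.2 ± 10.7 CPM. On the mm10 build Mrc1 lies at chr2:14229392-14332057, Folr2 at chr7:101839988-101857194, F13a1 at chr13:36867178-37050244 and Cd163 at chr6:124304656-124330527.

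Genes outside the rule separated the classes too. All 25 of a list of resident markers stood higher in resident than in M-above-R cells in each of the 6 samples, with a median log2 ratio of 3.53, beside 23.6% of 6153 genes with at least 20 CPM and a median of 0.09 over those genes. Lyve1, the hyaluronan receptor shared with lymphatic vessels, led the ranking. It held 836, 623 and 693 CPM in resident cells of the high-fat diet samples and 393, 742 and 428 CPM in those of the controls. In M-above-R cells it held 22.8, 14.7 and 16.5 CPM in the high-fat diet samples and 22.7, 19.5 and 9.24 CPM in the controls, so the classes did not overlap. The C-type lectins Cd209f, Cd209g and Cd209b, which bind microbial sugars, were also among the leading genes. They averaged 607 ± 436, 266 ± 155 and 123 ± 54.8 CPM in resident cells and 13.3 ± 6.27, 6.73 ± 5.41 and 7.33 ± 2.42 CPM in M-above-R cells. The samples were spread widely for Cd209f, which held 1449 CPM in control 3 and 290 CPM in control 1.

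**Figure D1:**
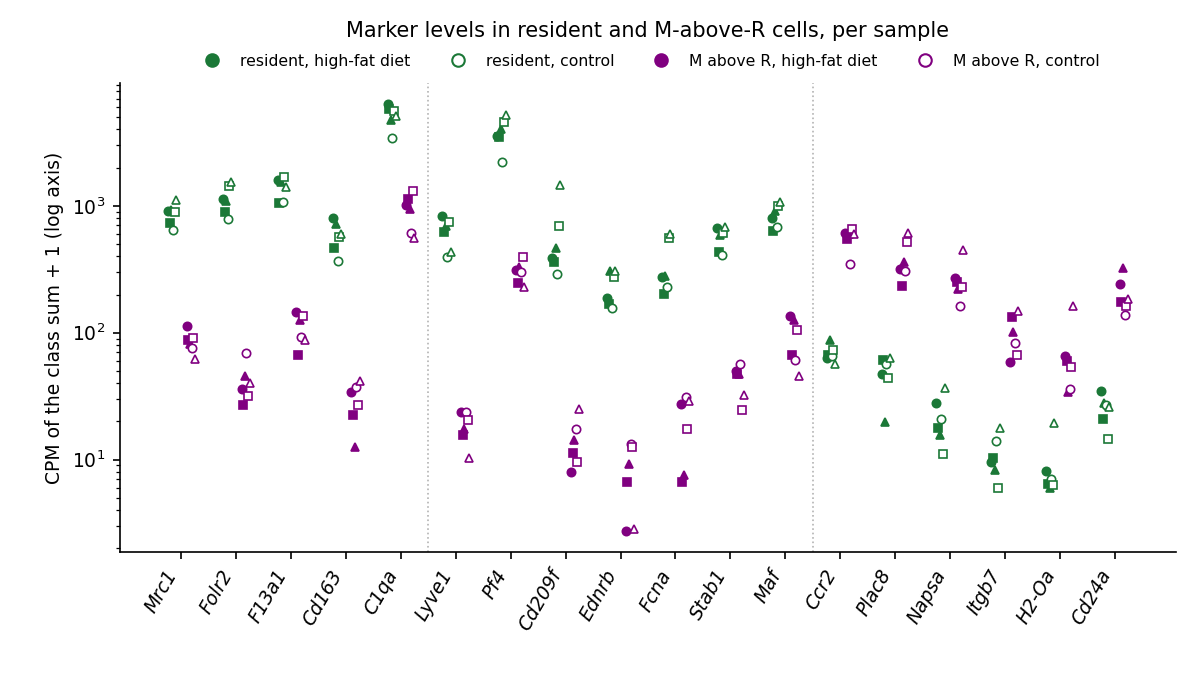
Levels (CPM + 1, log axis) of markers used to name the cells (left), genes higher (middle) and genes lower (right) in resident macrophages, green, than in M-above-R cells, purple, with 1 point per sample, filled for high-fat diet and open for control. Lyve1 averaged 619 CPM in resident and 17.6 CPM in M-above-R cells, and Ccr2, a gene of the rule, 67.8 and 558 CPM.

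The other leading genes were secreted factors, clearance receptors and a transcription factor. Pf4, a chemokine also stored in platelets, averaged 3827 ± 1011 CPM in resident and 302 ± 60.03 CPM in M-above-R cells, and Ccl8, a chemokine ligand that draws leukocytes, 1019 ± 401 and 68.0 ± 45.6 CPM. Ednrb, the endothelin receptor type B, averaged 232 ± 69.7 CPM in resident cells and 6.90 ± 4.62 CPM in M-above-R cells. Stab1, a scavenger receptor for modified lipoproteins and dead cells, averaged 566 ± 117 and 42.1 ± 12 CPM, and the ficolin Fcna, which opens the lectin pathway of complement, 355 ± 174 and 18.8 ± 10.8 CPM. Maf, a transcription factor of settled macrophages, averaged 848 ± 178 CPM in resident and 88.7 ± 37.1 CPM in M-above-R cells. Ltc4s (leukotriene C4 synthase), Mmp9 (a gelatinase), Etv1 (a transcription factor), Npl (a sialic acid lyase) and Ctla2b completed the 15, and each of the 15 was higher in resident cells in all 6 samples.

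Outside the resident markers and the lists of other cell types, scavenger and clearance receptors had the highest median log2 ratio. Complement and general macrophage genes came next, ahead of the iron and haem genes. Of the lists of other cell types, the erythroid list stood above the receptors. The adipocyte list stood between the receptors and the complement genes. Of 19 scavenger and clearance receptors with at least 20 CPM, 15 were higher in resident cells in all 6 samples and 0 were lower in all 6, with a median log2 ratio of 1.99. They included Msr1, Mertk, Siglec1 and Timd4, which take up lipoproteins, apoptotic cells or vesicles, and Timd4 averaged 120 ± 19.3 CPM in resident and 20.2 ± 12.8 CPM in M-above-R cells. Of 12 iron and haem genes 10 were higher, among them the haem oxygenase Hmox1 at 185 ± 42.1 and 43.1 ± 16.8 CPM and the iron exporter Slc40a1 at 56.3 ± 40.7 and 2.32 ± 1.77 CPM. All 4 erythroid genes with that level were higher too, with 942 to 14264 CPM summed over the 6 haemoglobin and erythroid genes in resident cells and 593 to 3028 CPM in M-above-R cells. T and B cells held 728 to 8700 CPM of them, and whether this RNA was taken up or free was not tested. Of 17 cytokine and chemokine genes 8 were higher in all 6 samples, which held Ccl2, Ccl6, Ccl7, Ccl8, Ccl9, Ccl12 and Ccl24. Of 19 complement and general macrophage genes 15 were higher and Csf2ra, a receptor chain for a growth factor, was lower in all 6.

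The lower side was that of antigen presentation, and 16% of the 6153 genes were lower in all 6 samples. Of 10 MHC class II genes 9 were lower in resident cells in all 6 samples (median log2 ratio -1.35), with H2-Ab1 at 3324 ± 763 CPM in resident and 8291 ± 2373 CPM in M-above-R cells. Of 14 monocyte markers outside the rule 13 were lower (median -1.05), and of 9 dendritic cell markers 8 (median -2.44). The 10 leading genes on this side were Napsa, Amica1, Itgb7, Rnase6, H2-Oa, Cd24a, Ifi205, Plbd1, Bcl2a1d and Cytip. Napsa, an aspartic protease, averaged 20.7 ± 9.25 CPM in resident and 262 ± 96.4 CPM in M-above-R cells, and Cd24a, a surface sialoglycoprotein, 24.1 ± 6.82 and 203 ± 66.9 CPM. Several of these are also carried by dendritic cells, so the M-above-R cells are named here by their rule and not as monocytes. Of 11 cell cycle genes 8 were lower in resident cells in all 6 samples.

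The first question on diet was whether these cells became more or less frequent. Resident cells made up 83.1%, 69.5% and 86.0% of gated macrophages in the high-fat diet samples and 76.7%, 84.0% and 81.0% in the controls. Their means were 79.5% ± 8.82 and 80.6% ± 3.66 (SD, n = 3 each), and the difference of -1.03 percentage points had an exact two-sided permutation p of 0.9. The groups overlapped. Among all filtered cells the shares were 6.69%, 4.64% and 10.9% on the high-fat diet and 9.20%, 10.5% and 5.20% in the controls, a difference of -0.884 points with an exact permutation p of 0.8. The smallest p that 3 against 3 samples allow is 0.1. The 95% Wilson intervals, which cover counting error only, ran from 65.4% to 73.3% for high-fat diet 2 and from 82.4% to 85.5% for control 2 in the first of these shares. Leaving out control 2 turned the differences to 0.693 and 0.214 points, and leaving out high-fat diet 2 to 3.99 and 0.506 points.

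No single gene passed the edgeR test of diet in resident cells with all 6 samples. edgeR's quasi-likelihood test on the 6 resident sums, with Benjamini-Hochberg adjustment over 11271 genes, called 0 of them at an adjusted p of 0.05 (0% called), while 678 (6.02%) had an unadjusted p under 0.05, 291 higher (2.58%) and 387 lower (3.43%). DESeq2 on the same sums called 23 of 9061 genes (0.254%), 16 higher and 7 lower. Without control 1, edgeR called 369 of 11177 genes (3.3%), 172 higher (1.54%) and 197 lower, and 19 of the 23 DESeq2 genes were among them. In that fit RNA of other cell types stood higher on the high-fat diet: smooth muscle genes were positive in 8 of 8 (median 1.62) and fibroblast genes in 7 of 10 (median 0.65), against medians of 0.18 and -0.21 with all 6 samples. The part of that RNA in the calls without control 1 was not tested. Each diet value below is a log2 fold change of high-fat diet over control with its standard error, and over all genes tested its median was -0.02 and 47.3% were above 0. The groups did not overlap for 13.3% of genes: 8.98% were higher in every high-fat diet sample than in every control and 4.28% were lower.

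Of the genes closest to the threshold, Alyref and Cebpb came first. Alyref, which couples splicing to the export of mRNA, held 93.3, 116 and 80.0 CPM in resident cells of the high-fat diet samples, against 22.4, 22.7 and 33.9 CPM in the controls. Every high-fat diet sample lay above every control. The log2 fold change was 1.78 (SE 0.23), and its adjusted p was 0.51 by edgeR and 1.22e-06 by DESeq2. Cebpb, a transcription factor of the acute phase and of myeloid cells, held 351, 230 and 195 CPM against 29.5, 31.5 and 55.0 CPM in the controls. Its log2 fold change was 2.65 (SE 0.34, edgeR adjusted p 0.51), with 1.40 in well 1 and 3.27 in well 2 alone. Both genes stood apart in the T and B cells of the same samples, where Alyref held 108, 152 and 118 CPM on the high-fat diet against 17.5, 16.9 and 35.9 CPM in the controls, and Cebpb 43.5, 70.4 and 45.5 against 7.0, 5.88 and 6.93 CPM. Whether their difference in resident cells comes from those cells or from RNA that all cell types share was not tested. Cebpb lies at chr2:167688915-167690418 and Alyref at chr11:120592121-120598365.

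The next 4 genes on the higher side were Tagap, Creld2, Diaph1 and Manf. Tagap, a GTPase-activating protein of leukocytes, had a log2 fold change of 1.35 (SE 0.20), and Diaph1, a formin that builds actin filaments, 0.72 (SE 0.13). Creld2 and Manf, both secreted when the endoplasmic reticulum is under load, had 1.26 (SE 0.20) and 0.93 (SE 0.17). Manf held 274, 348 and 262 CPM on the high-fat diet and 141, 146 and 146 CPM in the controls. Their adjusted p was 0.63 to 0.65 by edgeR, and without control 1 all 4 were called. On the lower side the 6 genes were Cirbp, Tmem242, Cib2, H1f0, Tef and Sdhaf4. Cirbp, a cold-induced RNA-binding protein, held 39.8, 37.0 and 36.2 CPM on the high-fat diet and 92.9, 61.0 and 113 CPM in the controls, a log2 difference of -1.32 (SE 0.22), for which edgeR gave an adjusted p of 0.65. Tmem242, a membrane protein of mitochondria, held 31.9, 32.0 and 31.7 CPM against 51.4, 49.6 and 48.9 CPM. H1f0, a linker histone, and Tef, a clock-controlled factor, had -0.82 (SE 0.17) and -0.89 (SE 0.21). Cirbp in T and B cells held 39.8, 74.6 and 52.6 CPM on the high-fat diet and 126, 152 and 173 CPM in the controls. The X-linked Rbm3, chosen after its values were seen, is the other cold-induced protein of this kind and had -1.41 (SE 0.26) in resident cells.

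**Figure D2:**
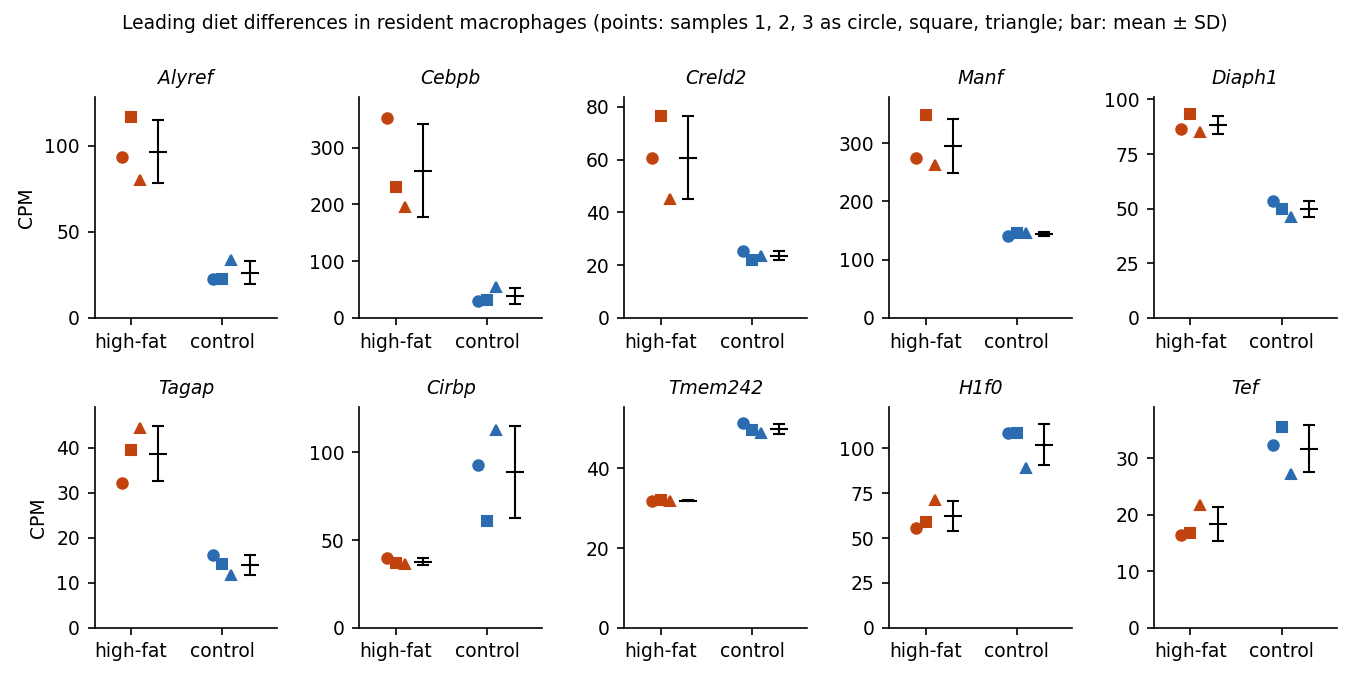
Levels in resident macrophages (CPM) of 10 of the 12 named genes, with 1 point per sample and a bar at the mean ± SD of 3, high-fat diet left and control right. None passed the adjusted threshold in edgeR with all 6 samples. Cebpb averaged 259 CPM on the high-fat diet and 38.7 CPM in the controls, and Cirbp 37.7 and 88.9 CPM.

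Genes of the unfolded protein response stood higher on the high-fat diet. This response adds chaperones and folding enzymes to the endoplasmic reticulum when unfolded proteins gather there, and its factors bind a promoter element that joins a CCAAT box to a CCACG box. Of 20 genes on the list, 18 had a positive fold change and 13 an unadjusted p under 0.05 on the higher side, beside 2.58% of all genes, and the median was 0.69. In 17 of them every high-fat diet sample lay above every control, beside 8.98% of all genes. By edgeR 0 were called with all 6 samples and 8 without control 1, where 1.54% of all genes were called higher. DESeq2 called 7, beside 0.254% of all genes. The chaperone Hspa5 held 630, 967 and 576 CPM on the high-fat diet and 345, 266 and 279 CPM in the controls (log2 fold change 1.19, SE 0.21, edgeR adjusted p 0.65). High-fat diet 2 was the highest of the 6 samples. The chaperones Hsp90b1 and Calr had 0.89 (SE 0.18) and 0.79 (SE 0.15), and the disulfide isomerase Pdia6 1.05 (SE 0.20). The list's median was 0.85 in well 1 and 0.53 in well 2 alone, and 0.42 over 19 members in the M-above-R cells of the same samples. In T and B cells Hspa5 held 551, 918 and 556 CPM on the high-fat diet and 287, 142 and 164 CPM in the controls.

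Promoters of 4 of these genes are shown because the genes stood higher together and carry that element. The sequences are RefSeq's for GRCm38.p6, the 250 bases before the annotated start, 5′ to 3′ on the gene's strand, and capitals mark CCAAT, any 9 bases and CCACG, searched on both strands.
Hspa5, chr2:34771840-34772089, plus strand: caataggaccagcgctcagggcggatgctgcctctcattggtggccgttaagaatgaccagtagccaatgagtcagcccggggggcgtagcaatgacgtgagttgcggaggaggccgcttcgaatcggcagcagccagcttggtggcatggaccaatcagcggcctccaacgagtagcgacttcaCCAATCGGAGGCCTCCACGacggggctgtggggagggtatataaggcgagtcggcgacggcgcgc
Hsp90b1, chr10:86705445-86705694, minus strand: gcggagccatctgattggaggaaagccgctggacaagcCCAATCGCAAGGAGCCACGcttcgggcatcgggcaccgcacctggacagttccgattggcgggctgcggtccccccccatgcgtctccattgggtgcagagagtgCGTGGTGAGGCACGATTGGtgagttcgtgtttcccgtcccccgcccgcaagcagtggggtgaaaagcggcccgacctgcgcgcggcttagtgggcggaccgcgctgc
Calr, chr8:84846932-84847181, minus strand: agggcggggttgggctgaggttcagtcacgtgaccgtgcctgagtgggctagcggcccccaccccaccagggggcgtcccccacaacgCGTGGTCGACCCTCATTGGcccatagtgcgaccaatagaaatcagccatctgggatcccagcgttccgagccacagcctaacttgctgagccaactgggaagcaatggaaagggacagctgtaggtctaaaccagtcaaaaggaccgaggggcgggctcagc
Creld2, chr15:88819396-88819645, plus strand: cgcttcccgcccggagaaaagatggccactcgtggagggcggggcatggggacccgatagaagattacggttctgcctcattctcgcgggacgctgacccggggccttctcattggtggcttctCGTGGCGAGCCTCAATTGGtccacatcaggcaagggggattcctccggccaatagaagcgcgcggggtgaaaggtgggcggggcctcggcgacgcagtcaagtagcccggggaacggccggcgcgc
The element was found in 39 of 32851 RefSeq promoters (0.119%, windows of 300 bases from 250 before to 50 after the start) and in 7 of the 18 genes of the list that the table holds. These were Hspa5, Hsp90b1, Calr, Creld2, Canx, Pdia6 and Dnajc3, and Hsp90b1 had 2 matches that do not overlap. It was found in 0 of 14 heat shock genes of the table. A match in letters does not show that a factor binds there.

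Cytosolic heat shock genes, whose products refold proteins outside the endoplasmic reticulum, stood higher as well. Of 17 genes, 15 had a positive fold change, and the median was 0.86. On the higher side 8 had an unadjusted p under 0.05, beside 2.58% of all genes. In 8 every high-fat diet sample lay above every control, beside 8.98% of all genes. By edgeR 0 were called with all 6 samples and 7 without control 1, where all 17 were positive and 1.54% of all genes were called higher. DESeq2, which called 0.254% of all genes, called Hspa8 and Hsp90aa1. Hsp90aa1, a general chaperone, held 453, 700 and 612 CPM on the high-fat diet and 317, 194 and 162 CPM in the controls (1.31, SE 0.26). Hspa8, the constitutive HSP70, held 1460, 1598 and 1444 CPM against 863, 762 and 602 CPM (0.92, SE 0.17). The edgeR adjusted p of both was 0.65. Control 1 was the highest of the controls for both genes. In the M-above-R cells of the same samples the list's median was 0.78, with 16 of 16 positive. All 6 samples were digested for 30 min at 37 °C. Any part of this handling in the heat shock and cold-induced values was not tested.

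**Figure D3:**
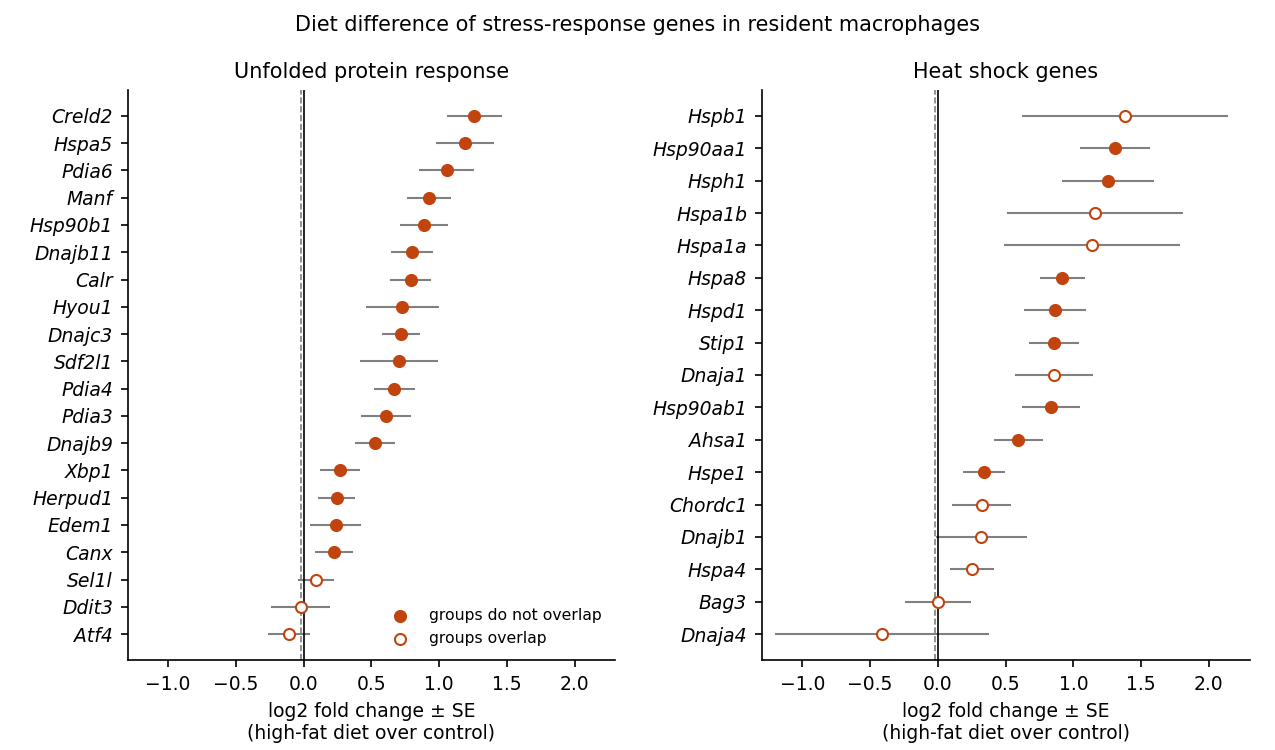
Log2 fold change of high-fat diet over control in resident macrophages (x axis) for the genes of the unfolded protein response and heat shock lists, with 1 point per gene, bars of 1 standard error, filled points where the groups did not overlap, a solid line at 0 and a dashed line at the median of all genes, -0.02. Of 20 and 17 genes, 18 and 15 lay above 0, with medians of 0.69 and 0.86, and 0 passed the adjusted threshold of edgeR with all 6 samples.

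Lipid genes were of interest because macrophages that take up lipoprotein lipid become foam cells. Of 21 genes tested, 9 had a positive fold change and the median was -0.10, close to all genes. Plin2, which coats lipid droplets, stood apart with 397, 322 and 305 CPM on the high-fat diet and 80.9, 160 and 171 CPM in the controls (log2 fold change 1.19, SE 0.33, edgeR unadjusted p 0.0078). It was called without control 1. Lgals3, a galectin of activated macrophages, had 0.65 (SE 0.25). Trem2, a lipid receptor of foam cells, held 87.1, 65.6 and 71.2 CPM on the high-fat diet and 70.4, 104 and 99.5 CPM in the controls, and Lpl, the lipoprotein lipase, had -0.31 (SE 0.25). Spp1, secreted by foam cells, stayed between 2.06 and 6.26 CPM in all 6 samples.

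The medians of the inflammatory lists differed in sign between the wells. Of 23 cytokine and chemokine genes 17 had a positive fold change (median 0.14), with a median of -0.25 in well 1 and 0.75 in well 2. Cxcl2, a neutrophil attractant, held 126, 76.9 and 127 CPM on the high-fat diet and 55.8, 60.9 and 74.5 CPM in the controls (0.69, SE 0.24), and Ccl5, a chemokine that T cells also make, 26.1, 25.1 and 18.7 against 58.7, 34.0 and 108 CPM (-1.60, SE 0.41). Interferon-induced genes had a median of 0.35, with 0.96 in well 1 and -0.26 in well 2, and Isg15 held 93.0, 216 and 42.2 CPM on the high-fat diet and 81.6, 40.7 and 38.3 CPM in the controls. Immediate early genes, which answer to cell handling, had a median of 0.16, with -0.81 in well 1 and 0.90 in well 2. Jund, an AP-1 subunit, held 870, 866 and 1028 CPM against 470, 472 and 507 CPM (0.83, SE 0.16) and was called by DESeq2. None of these lists held a gene called by edgeR with all 6 samples.

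The markers of the resident state leaned the other way. Of 25 resident markers outside the rule, 6 had a positive fold change (median -0.27), 1 (Fcna) had an unadjusted p under 0.05, and the groups did not overlap in 0. Fcna held 273, 200 and 278 CPM on the high-fat diet and 230, 553 and 598 CPM in the controls (-1.01, SE 0.40), with control 1 among the high-fat diet samples. Without control 1, 2 of the 25 were positive (median -0.54) and Fcna, Cbr2, Ltc4s, Pf4 and Ninj1 were called lower. In that fit 197 of all 11177 genes were called lower. Without control 3, 11 were positive and the median was -0.04, and in well 1 alone it was -0.08, also with 11 positive. Of 10 MHC class II genes 0 were positive (median -0.27), but in well 2 the median was 0.33 and 6 of 9 were positive, and without control 3 it was -0.02 with 4 of 10 positive. Genes of B cells, which also carry class II, had 3 of 3 below 0 (median -2.13) and were highest in control 3, at 270 CPM. Their part in the class II values was not tested. H2-Ab1 held 2830, 3380 and 3292 CPM on the high-fat diet and 2436, 3315 and 4692 CPM in the controls, which overlapped. Of 14 iron and haem genes 3 were positive (median -0.31). Mrc1, a rule gene given as a description, held 910, 728 and 922 CPM on the high-fat diet and 640, 895 and 1120 CPM in the controls. C1qa, which is outside the rule, held 6328, 5744 and 4751 CPM on the high-fat diet and 3412, 5550 and 5115 CPM in the controls, which overlapped.

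Cell cycle genes stood higher on the high-fat diet, but none was called. Of 14 genes 13 were positive (median 0.42). In 5 every high-fat diet sample lay above every control, beside 8.98% of all genes. The median was 1.24 over 10 genes in well 1 and 0.23 in well 2. In the M-above-R cells it was 0.11, with 11 of 15 positive. Mki67, a marker of dividing cells, held 28.1, 40.4 and 18.2 CPM on the high-fat diet and 15.1, 13.5 and 8.34 CPM in the controls (1.07, SE 0.32), with Top2a and Cdk1 at 0.95 (SE 0.32) and 0.80 (SE 0.31). The groups did not overlap for any of the 3, whose edgeR unadjusted p was 0.012 to 0.035. In the other lists no gene was called by edgeR with all 6 samples. Lysosome genes had 14 of 22 positive (median 0.14), growth factors for vessel cells 12 of 17 (0.17), macrophage transcription factors 14 of 24 (0.09), scavenger receptors 7 of 20 (-0.16), complement and general macrophage genes 8 of 19 (-0.03), and monocyte markers 6 of 15 (-0.17). In the monocyte list Cd44, the hyaluronan receptor of leukocytes, held 131, 162 and 137 CPM against 76.2, 85.8 and 48.9 CPM (0.91, SE 0.23). In the growth factor list Mmp9 held 156, 140 and 99.96 CPM against 158, 196 and 503 CPM (-1.23, SE 0.48).

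RNA of other cell types was present in the resident sums and varied among the samples of each diet. Smooth muscle genes summed to 4751, 7080 and 2797 CPM on the high-fat diet and 9564, 1179 and 1465 CPM in the controls. Fibroblast genes summed to 7305, 6490 and 4069 CPM against 13202, 3762 and 2229 CPM. Control 1 was the highest in both. Lymphatic endothelial genes, a list added after the data were seen, summed to 73.1, 112 and 61.5 CPM against 523, 36.2 and 1043 CPM, and B cell genes to 37.4, 16.8 and 19.99 CPM against 18.0, 42.2 and 270 CPM. No gene of these lists was at 0 in all samples. T and B cells of the same samples held smooth muscle genes at 2694 to 5757 CPM on the high-fat diet and 4635 to 5726 CPM in the controls. In a further setting, cells were left out in which Col1a1, Col3a1, Dcn, Acta2, Myh11, Pecam1 and Cdh5 together made up 1% or more of the UMIs. There edgeR called 0 genes and the medians of the unfolded protein response and heat shock lists were 0.67 and 0.84. That setting left 672, 361 and 1027 resident cells on the high-fat diet and 557, 1703 and 431 in the controls. The skeletal muscle median for diet was then -4.07, against -3.90 with all cells. The setting counts no skeletal muscle or B cell gene, so it cannot show what RNA of those cells adds. The part of skeletal muscle RNA in the diet values was not tested.

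**Figure D4:**
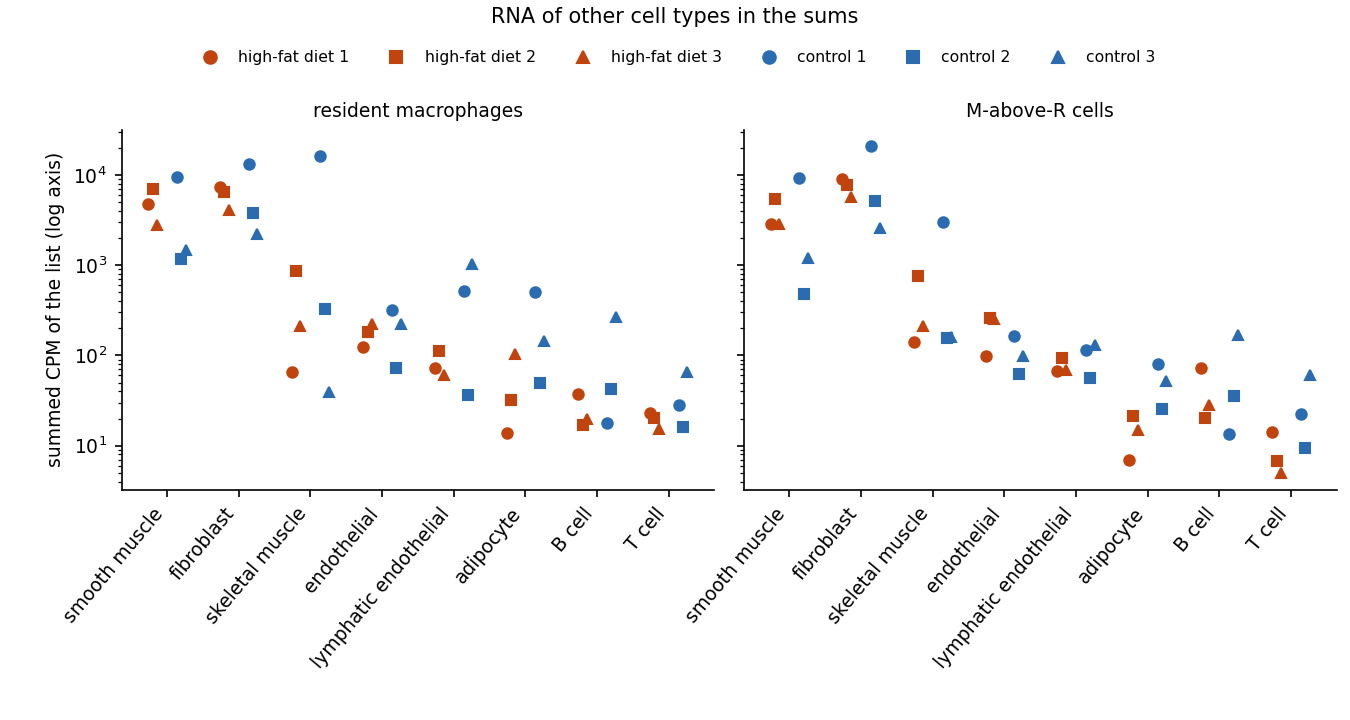
Summed CPM (log axis) of marker lists of other cell types in the sums of resident macrophages (left panel) and M-above-R cells (right panel), with 1 point per sample, high-fat diet (orange) left of control (blue). In resident cells, skeletal muscle genes reached 16141 CPM in control 1, against 38.9 to 854 CPM in the other 5 samples.

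Whether diet acted on resident and M-above-R cells to a different degree was tested as an interaction over the 12 sums. edgeR called 6 of 10503 genes (0.0571%), all with a lower diet effect in resident cells: Acta1, Myl3, Mylpf, Myl1 and Tnnc2, which encode contractile proteins of skeletal muscle, and Cldn5, a tight junction protein of endothelium. None is a macrophage marker. Acta1 held 1.03, 313 and 63.2 CPM in resident cells on the high-fat diet and 5520, 124 and 5.56 CPM in the controls, and 1.75, 223 and 42.9 against 1050, 23.1 and 1.85 CPM in M-above-R cells. The difference of the log2 fold changes was -1.93 (SE 0.25, adjusted p 0.0037), and control 1 alone held the high values. In T and B cells Acta1 held 1.66, 290 and 37.0 CPM on the high-fat diet and 1134, 38.4 and 3.73 CPM in the controls. Leaving out control 1 gave 15 calls, of which 2 were among the 6, and leaving out any high-fat diet sample gave 0. In the M-above-R cells alone edgeR called 0 of 6931 genes (0% called) for diet, with 286 at an unadjusted p under 0.05.

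The resident cells were then divided by Lyve1, a choice the rule did not use. Cells were thinned to 1000 UMIs and called Lyve1-positive with at least 1 Lyve1 UMI. Positive cells made up 53.9%, 40.1% and 48.0% of resident cells on the high-fat diet and 35.2%, 47.8% and 31.3% in the controls, against 2.17%, 0.735% and 2.33% and 1.89%, 0.507% and 1.22% of T and B cells. The means were 47.3% ± 6.91 and 38.1% ± 8.64 (SD, n = 3 each), and the difference of 9.21 points had an exact two-sided permutation p of 0.2. Without thinning the means were 76.5% and 71.1%, so a cell called negative is one in which this depth did not show Lyve1. Lyve1 lies at chr7:110850607-110863239.

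All 6 MHC class II genes measured deeply enough fell in Lyve1-positive cells. Between the 12 sums of positive and negative cells, with the sample as a block and Lyve1 left out, edgeR called 109 of 4379 genes higher (2.49%) and 158 lower (3.61%), and DESeq2 called 68 of 983. H2-Ab1, the beta chain of the I-A molecule that shows peptides to T cells, held 1938, 2716 and 1938 CPM in positive cells on the high-fat diet and 1995, 2465 and 3022 CPM in those of the controls. In negative cells it held 3659, 4285 and 3839 CPM and 3092, 4002 and 5215 CPM, so it was lower in the positive cells of every sample, by 0.81 on the log2 scale (-0.81, SE 0.04, adjusted p 1.28e-34). H2-Eb1 and H2-Aa changed by -0.86 (SE 0.05) and -0.77 (SE 0.04), the invariant chain Cd74 by -0.68 (SE 0.04), and the peptide loaders H2-DMa and H2-DMb1 by -0.66 (SE 0.09) and -0.77 (SE 0.10). The median of the 6 was -0.77, beside -0.01 over all genes. The 6 were also called in well 2 alone and with the gate set on thinned cells.

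Class II levels also varied from cell to cell. In a further thinning to 1000 UMIs, Cd74, H2-Aa, H2-Ab1 and H2-Eb1 together had a median of 4, 13 and 5 UMIs in positive cells of the high-fat diet samples, against 13, 20 and 17 in negative ones. In the controls the medians were 8, 11 and 19 in positive and 15, 22 and 27 in negative cells. The quartiles of the 2 kinds of cell overlapped in each sample, as in high-fat diet 1, where they were 1 and 16 in positive and 3 and 38 in negative cells.

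**Figure D5:**
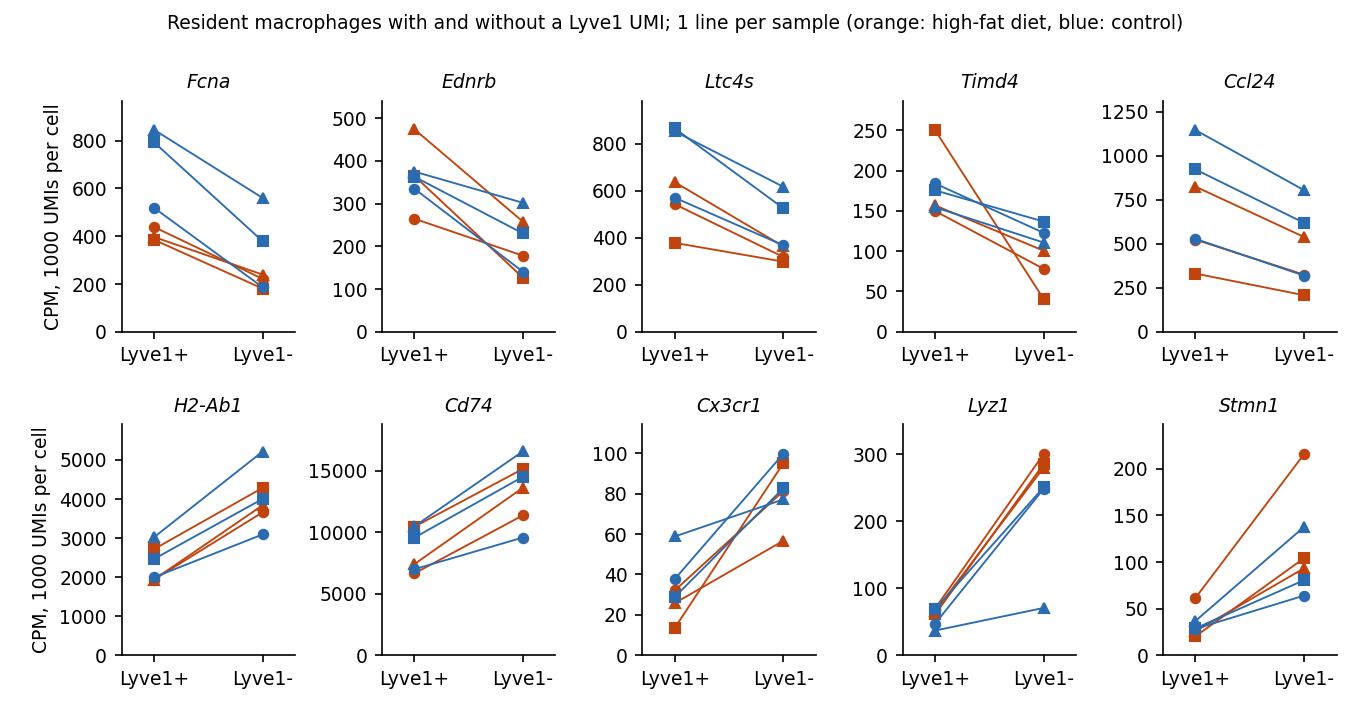
Levels of genes called between Lyve1-positive (left) and Lyve1-negative (right) resident macrophages, in CPM after thinning each cell to 1000 UMIs, with a line for each of the 6 samples (high-fat diet orange, control blue). H2-Ab1 averaged 2346 CPM in positive and 4015 CPM in negative cells, and Fcna 563 and 295 CPM.

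Resident markers rose with Lyve1. Of 24 tested, 20 were called higher and 0 lower, beside 2.49% and 3.61% of all genes. Their median was 0.42, though 7 were called when the gate was set on thinned cells. Fcna averaged 563 ± 205 CPM in positive and 295 ± 149 CPM in negative cells (SD, n = 6; log2 0.93, SE 0.08, adjusted p 1.14e-18) and was higher in 6 of 6 samples. Ednrb averaged 363 ± 67.8 and 206 ± 69.0 CPM (0.76, SE 0.09), and Cd209b 172 ± 65.1 and 99.1 ± 52.6 CPM (0.79, SE 0.13). Timd4, a receptor for phosphatidylserine on dying cells, averaged 178 ± 37.5 and 98.3 ± 34.5 CPM (0.65, SE 0.14), and the eosinophil attractant Ccl24 713 ± 304 and 470 ± 224 CPM (0.58, SE 0.07). The other leading genes were Slc12a7, Npr1, Ube2q2, Hip1 and Mesdc1, at 0.65 to 0.89. Among vessel growth genes Timp2, an inhibitor of matrix proteases, rose by 0.34 (SE 0.06), and the transcription factors Maf and Klf2 by 0.31 (SE 0.06) and 0.32 (SE 0.07). Of the rule's genes, given as a description, F13a1 averaged 1958 CPM in positive and 1322 CPM in negative cells and Ccr2 27.8 and 93.1 CPM.

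Genes that fell in Lyve1-positive cells were led by markers of monocytes and by other leukocyte genes. Lyz1, a lysozyme, averaged 58.0 ± 13.2 CPM in positive and 239 ± 85.0 CPM in negative cells (-2.04, SE 0.13, adjusted p 3.54e-29), and the ribonuclease Ear2 11.1 ± 11.3 and 46.4 ± 9.15 CPM (-2.26, SE 0.31). Cx3cr1, the fractalkine receptor, averaged 32.8 ± 15.1 and 82.1 ± 15.2 CPM (-1.39, SE 0.19), and Cd52, a leukocyte surface peptide, 194 ± 88.7 and 438 ± 79.8 CPM (-1.27, SE 0.10). All 4 were lower in positive cells in 6 of 6 samples. Stmn1, which destabilizes microtubules in dividing cells, averaged 33.6 ± 14.7 and 116 ± 54.8 CPM (-1.73, SE 0.18), and the other leading genes were Bcl2a1b, Plbd1 and Tcf7l2, at -1.11 to -1.03. Of 7 monocyte markers 4 were called lower (median -0.52), beside 3.61% of all genes. With the gate set on thinned cells 1 of 6 was called lower and the median was 0.04. Of 4 cell cycle genes 2 were called lower (Stmn1 and Hmgb2). In the lipid list Lpl, Lgals3 and Cd9 fell by 0.88, 0.64 and 0.60 on the log2 scale, and Cd36 and Pltp rose by 0.24 and 0.28. In the cytokine list Ccl3 fell by 1.00 and Ccl6, Ccl9 and Ccl24 rose.

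Genes of other cell types moved with the split too. Of 8 smooth muscle genes 5 were called lower and of 9 fibroblast genes 4, beside 3.61% of all genes. Myh11 averaged 182 ± 114 CPM in positive and 262 ± 178 CPM in negative cells (-0.60, SE 0.11) and Col3a1 284 ± 175 and 364 ± 241 CPM (-0.40, SE 0.09). All 4 erythroid genes tested were lower at an edgeR unadjusted p under 0.05 (median -0.99), beside 375 of 4379 genes, and 0 were called. The 1 lymphatic endothelial gene tested was higher by 0.91 at an edgeR unadjusted p under 0.05, beside 324 of 4379 genes, and was not called. With cells left out in which Col1a1, Col3a1, Dcn, Acta2, Myh11, Pecam1 and Cdh5 made up 1% or more of the UMIs, 1 smooth muscle gene and 0 fibroblast genes were called. That setting removes cells by genes of these same lists, so the drop in calls cannot show how the lists relate to the split. It counts no skeletal muscle gene. Skeletal muscle genes had 1 of 3 called lower both with all cells (median -0.48) and with those cells left out (-0.54), and 7 of 7 after thinning to 2000 UMIs (-0.95). In the setting with the 1% limit all 6 class II genes were called again, with a median of -0.81, and 19 of 24 resident markers were called higher. Whether the diet effect differs between Lyve1-positive and Lyve1-negative cells was not tested.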

How the data were processed

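The 6 samples were droplet libraries with 3′ gel beads in 2 wells per sample, per the labels' protocols. They were made after enzymatic digestion for 30 min at 37 °C and red cell lysis. The authors deposited filtered matrices of whole-number UMI counts for 27998 genes, and Cell Ranger 3.0 and the mm10 build are named in the submitters' processing notes. Counts at the 3′ end are not set against each other between genes, and free RNA and doublets remain in the deposited counts.

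Raw counts were summed per sample over each class of cells, and CPM were taken over all UMIs of a sum. Scrublet scores (scanpy 1.11.5) were computed for each well of each sample and used to leave out cells only in an alternative. Sums were tested with edgeR 4.0.16 (quasi-likelihood, robust, TMM factors, filterByExpr, Benjamini-Hochberg, threshold 0.05) in R 4.3.3, with DESeq2 1.42.0 as an alternative. The interaction and the Lyve1 comparison had the sample as a block. Ratios between classes are log2 of CPM + 1. For shares, sample labels were permuted exactly, two-sided (scipy 1.17.1). The tests were also tested on simulated data.

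The members and lists were chosen with earlier results of these data known, and 3 of the lists were added after the values of these cells were seen. Named diet genes had a mean of at least 20 CPM, groups that did not overlap and, since edgeR called none, its smallest unadjusted p, 6 per direction. From the Lyve1 comparison up to 8 called genes per direction by size, and from the class comparison 15 higher and 10 lower genes of at least 50 CPM by their smallest ratio over the samples, were named, with members of the lists. Sex-linked, haemoglobin and mitochondrial genes were left out of these rankings. Lists are described by counts and medians only.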

Additional observations from a re-analysis of the deposited data

Results flagged for a closer look

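The diet effect differed between resident and M-above-R cells for 6 genes by edgeR's interaction test, and these are listed because the difference itself passed the test. The difference of the log2 fold changes, resident minus M-above-R, was -1.93 for Acta1, -2.44 for Myl3, -2.07 for Mylpf, -2.12 for Myl1, -1.72 for Tnnc2 and -2.32 for Cldn5. The first 5 are skeletal muscle genes, and the summed level of the 10 skeletal muscle genes was 65.9, 854 and 215 CPM in resident cells on the high-fat diet and 16141, 328 and 38.9 CPM in the controls. In M-above-R cells it was 142, 752 and 213 CPM on the high-fat diet and 3028, 155 and 159 CPM in the controls. Control 1 was the highest sample in both classes, and the part of muscle RNA from outside these cells was not tested.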

How the results depend on the processing

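The number of genes called for diet in resident cells was 0 in edgeR and 0 in 14 of 19 alternatives; it was 23 with DESeq2, 3 in well 2 alone, 1 with the gate set on cells thinned to 2000 UMIs, and 0 to 369 when 1 sample was left out (369 without control 1, 1 without control 2). The 6 interaction calls became 1 with DESeq2, 30 with no filter on low counts, 1 with a mitochondrial limit of 10%, 1 with an R of at least 5, 0 in well 2 alone, 0 with up to 1 Cd3e or Cd79a UMI allowed, and 0 to 15 when 1 sample was left out. In well 2 the values of Acta1 and Myl1 turned to 0.13 and 0.21, and with 1 lymphocyte UMI allowed those of Mylpf and Tnnc2 turned to 0.40 and 0.32. The 267 calls of the Lyve1 comparison became 68 with DESeq2, 125 in well 1, 144 in well 2, 42 with the gate on thinned cells, 604 with thinning to 2000 UMIs, where Tcf7l2 turned to 0.091, and 151 to 269 when 1 sample was left out. The diet difference in the share of resident cells ranged from -4.26 to 3.99 points among gated and -2.64 to 0.506 points among filtered cells when 1 sample was left out, and it turned to 0.693 and 0.214 without control 2 and to 3.99 and 0.506 without high-fat diet 2. That of the Lyve1-positive share ranged from 5.82 to 14.1 points. The class II median for diet turned to 0.33 in well 2. The causes of these changes were not tested. Same-numbered samples of the diets had r of -0.04, -0.40 and 0.35 over 5737 genes, so only the pair numbered 3 deviated together. The largest r, 0.54, was that of high-fat diet 2 with control 1, and only control 3 correlated best with its own number. With the replicate block edgeR called 0 genes for diet, with 526 at an unadjusted p under 0.05. Leaving out cells with 2 or more UMIs of other lineages was not run, since it left 0 cells in control 1, and a limit of 1% of a cell's UMIs, chosen after seeing the data, was used in its place. The interaction was not run in well 1 alone or with the gate on thinned cells, where sums fell under 20 cells.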

Other observations

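Of 13 clock-controlled genes, a list added after the values were seen, 7 had a positive diet value in resident cells and 6 a negative one (median 0.17). Without control 1 edgeR called 6 of the 13, 2 higher and 4 lower, beside 3.3% of all 11177 genes, 172 higher and 197 lower. Both genes named here were chosen after their values were seen. Dbp, a transcription factor of the circadian output, held 21.6, 20.2 and 14.5 CPM on the high-fat diet and 15.9, 146 and 104 CPM in the controls. Per3, a repressor of the clock, held 16.8, 12.3 and 15.99 CPM on the high-fat diet and 13.6, 45.4 and 35.0 CPM in the controls. For both genes control 1 lay among the high-fat diet samples, and the edgeR unadjusted p was 0.023 and 0.044.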
